A study of Mus musculus with 6 samples.

Results

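The genes of transmitter release were followed through the peak lists of H3K27ac, the acetylation of histone H3 at lysine 27 that marks active promoters and enhancers, in the mouse retina. A list of 40 genes was used, chosen by name for a role in synaptic vesicles, the active zone or the ribbon synapse, among 21938 protein-coding genes of the GENCODE annotation on GRCm38. A peak was assigned to a gene when it overlapped any of its transcription start sites (TSS) within 2.5 kb, or its gene body. The 40 genes held 105, 94 and 195 peaks in control replicates 1 to 3, and the 4xIOP replicates held 89, 100 and 72 there, of 21893, 19913, 36509, 20338, 20804 and 16195 peaks in the whole lists.

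The retinas came from wild-type (WT) mice that were 3 months old when the first pressure elevation was given. In the 4xIOP group (n = 3) the intraocular pressure of 1 eye was held at 30 mmHg for 1 h, 4 times, with 2 weeks between elevations. The control group (n = 3) consisted of untreated contralateral eyes, that is, eyes of animals whose other eye was stressed, and all retinas were collected on day 2 after the 4th elevation. The protocol in the labels also describes injection of dasatinib or vehicle, and the labels do not say whether the animals of these samples received either. Whole retina was used, so fewer cells of a type and less acetylation per cell cannot be told apart, and the labels do not say which control and stressed retinas came from the same animal.

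Each sample is represented by 1 peak list, and p-values below measure the spread between these lists. In 4 of the 6 lists (control replicates 1 and 2, 4xIOP replicates 1 and 2) the name carried by the list itself is that of the other group. The groups were kept as labelled, and values with the lists left out in turn, or with only control replicate 3 and 4xIOP replicate 3, are given where they bear on a result. Control replicate 3 stands apart with the most peaks and, at most promoters, the most fragments. By the shortest peak, which marks the fragment length, control replicate 1 and 4xIOP replicates 1 and 2 (220 to 232 bp) form one class and the other lists (187 to 195 bp) another. Among markers of retinal cells, promoters of rods and cones were marked for 7 or 8 of 8 genes in every list, and those of bipolar cells, which also have ribbon synapses, for 3, 2 and 7 of 7 in control and 2 of 7 in each 4xIOP list. Those of Müller glia were marked for 1, 2 and 3 of 5 genes in control and 1, 2 and 1 in 4xIOP, those of endothelium for 1, 0 and 1 of 5 in control and 0 in 4xIOP, and those of pigment epithelium, microglia and lens in no list.

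Transmitter release needs a vesicle filled with transmitter, a scaffold that holds it at the active zone, a calcium channel that opens on depolarization, and the SNARE proteins that fuse it with the membrane. Most synapses of the brain release on the arrival of an action potential. Photoreceptors and bipolar cells release continuously from a ribbon, a plate of the protein RIBEYE, and replace several components of the conventional release machinery with paralogs of their own.

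Promoters of the 40 genes were marked more often than those of protein-coding genes at large. A gene was counted as marked in a list if a peak overlapped the 2.5 kb on either side of any of its TSS by at least 1 bp. Of the 40 genes, 27 (67.5%) were marked in all 6 lists, against 39.5% of all protein-coding genes, 12 were marked in some lists, and Sv2c was marked in none (42.4% of all genes were marked in none). Control replicates 1 to 3 had 29, 33 and 39 of the 40 promoters marked, beside 48.6%, 46.2% and 56.9% of all protein-coding genes. The 4xIOP replicates had 32, 30 and 30 of the 40 marked, beside 47.4%, 45.7% and 44.6% of all genes. Every list thus had a larger share of the synaptic promoters marked than of all promoters.

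The height of a promoter peak was expressed as summit enrichment, the fragments at the summit divided by the genome mean background of the list (2.01 to 3.38 fragments), both recovered from the deposited fold and p. The deposited fold measures something else, the pile-up over the background of the surrounding 10000 bp or of the genome, whichever is higher, and is given as a percentile among the peaks of the list. Over the 27 genes marked in all 6 lists, the median summit enrichment was 24.9 times the genome mean, against 16.4 over the 8669 protein-coding genes marked in all lists. The percentile of the summit enrichment was taken among the marked genes of the list, a base other than that of fold. Its median was 86.9 against 56.5, and 17 of the 27 genes (63.0%) lay above the 75th percentile against 26.5% of all genes. The median percentile of fold went the other way, 52.9 against 77.5. The local background at the same peaks was 5.07 times the genome mean at the members and 2.40 times at all genes. The synaptic promoters thus had many fragments at the summit and a high local background, and the fold over that background was moderate. The peak itself can add to this background, and acetylation beside the peak was not measured separately. Across the 27 genes the percentile of fold and the local background had a Spearman correlation of -0.71, and across the 8669 genes -0.47, in which fold and background are not independent measures, since both mostly come from the same peak. This does not hold for Ctbp2, where the higher fold is at the upstream start and the background was taken at the RIBEYE start, which has the most fragments.

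**Figure D1:**
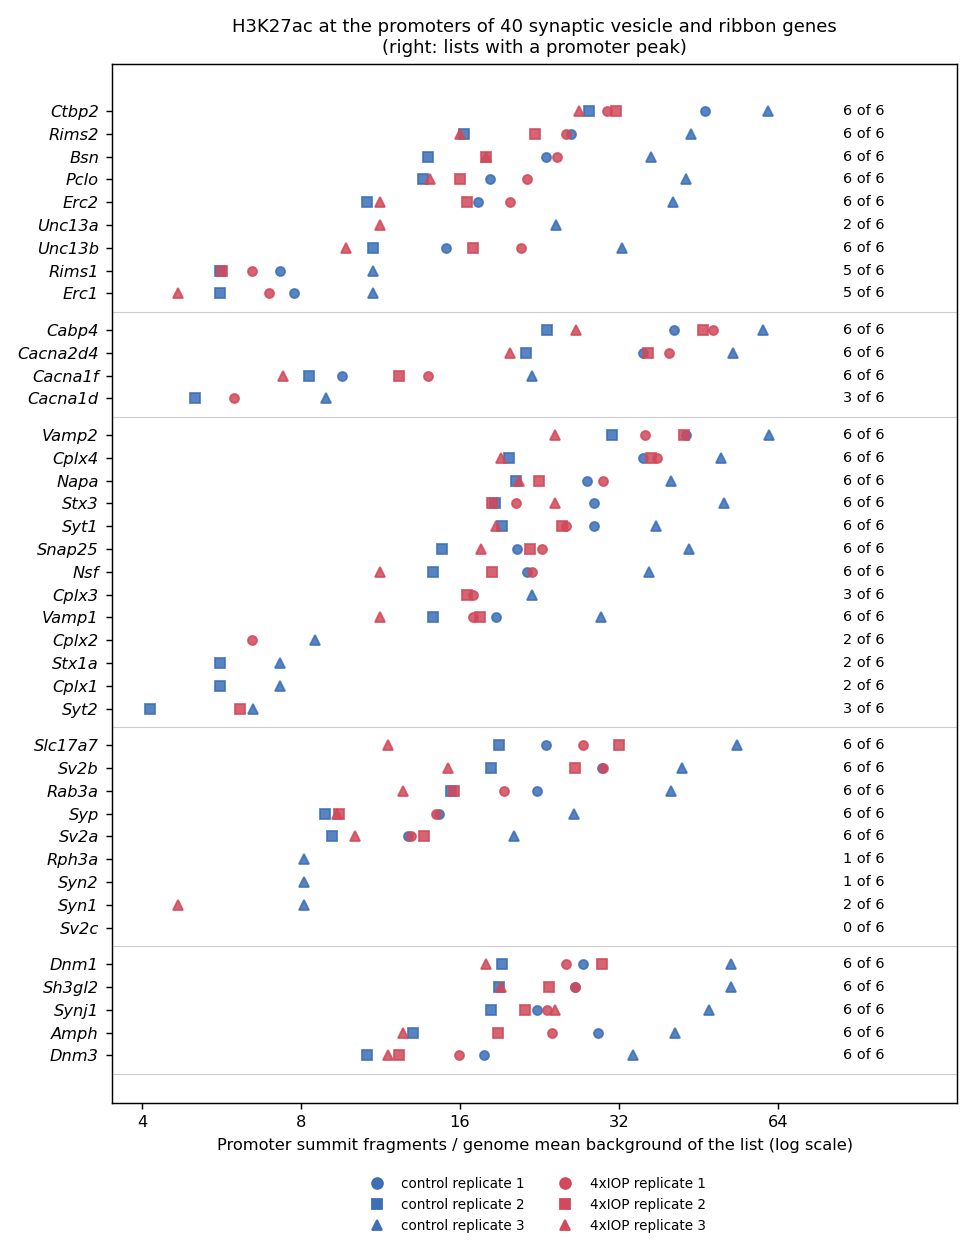
Each point is the summit enrichment of the promoter of 1 gene in 1 peak list (fragments at the summit divided by the genome mean background, log scale), with control lists in blue and 4xIOP lists in red, and no point where no peak was called. From top to bottom the blocks are the scaffold, the calcium channel complex, the fusion machinery, the vesicle proteins and the retrieval genes; 27 genes have a point in all 6 lists, Sv2c has none, and control replicate 3 gives the highest point of most genes.

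**Figure D2:**
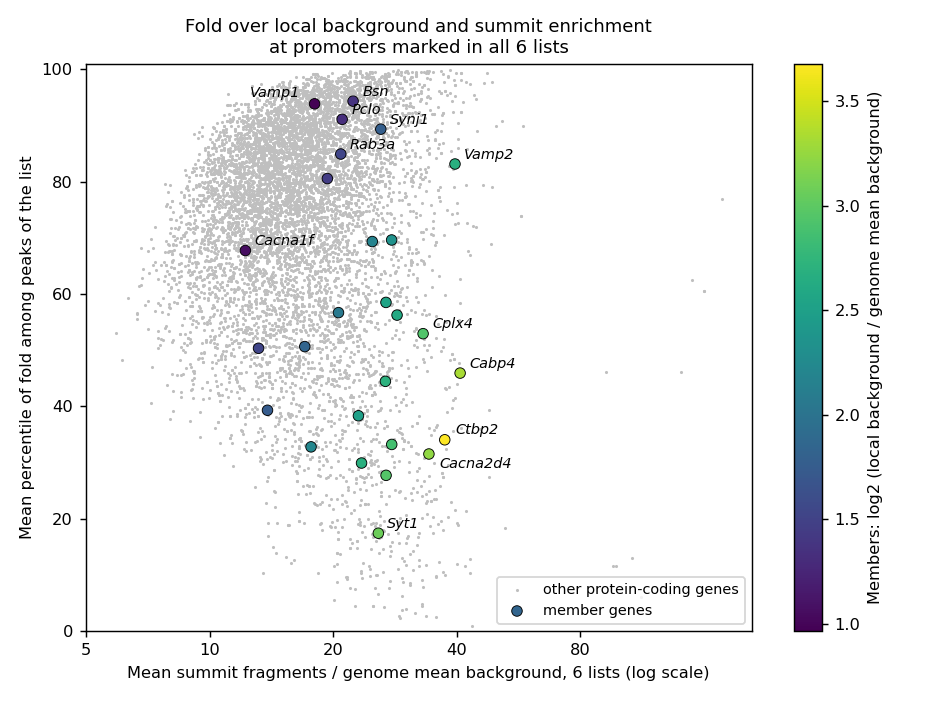
Mean percentile of fold (y axis) against mean summit enrichment (x axis, log scale) for the genes marked in all 6 lists, the 27 members coloured by their local background over the genome mean and the other genes in grey. Members spread over the whole range of fold, from Syt1 at 17.4 to Bsn at 94.3, while most lie to the right of the grey cloud's middle, and the members with the highest local background (Ctbp2, Cacna2d4, Cabp4) have fold percentiles under 50.

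Scaffold genes of the active zone and the ribbon were considered first, of which 6 of 9 were marked in all 6 lists. Ctbp2 encodes, from separate start sites, the transcriptional corepressor CtBP2 and RIBEYE, the main protein of the ribbon. The gene lies at chr7:132987563-133124354 on the minus strand. The upstream start (133123166 to 133123367) gives transcripts of 445 and 420 coding residues. An internal start at 133015248 gives a transcript of 988 coding residues whose longest coding exon is 1687 bp, which is the RIBEYE form. The 250 bases upstream of the RefSeq start of the RIBEYE transcript (RefSeq, GRCm38.p6, minus strand, chr7:133015248-133015497) are shown because this start carries the ribbon protein, with matches to TAATCC and TATAAA (either strand) in capitals.
Ctbp2, RIBEYE start: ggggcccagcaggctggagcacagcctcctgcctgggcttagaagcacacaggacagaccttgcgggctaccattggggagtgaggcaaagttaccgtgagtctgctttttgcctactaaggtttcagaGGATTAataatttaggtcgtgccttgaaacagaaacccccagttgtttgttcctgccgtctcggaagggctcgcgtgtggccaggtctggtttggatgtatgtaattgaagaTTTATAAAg
GGATTA, the reverse strand of the core bound by CRX-type homeodomain proteins, begins 121 bp before the start, and overlapping TATA letters begin 9 and 7 bp before it.

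Both Ctbp2 starts were marked in all 6 lists. At the RIBEYE start the summits held 102, 95 and 151 fragments in control, in the order of the replicates, and 61, 67 and 69 in 4xIOP. At the upstream start they held 39, 40 and 105 fragments in control and 34, 35 and 31 in 4xIOP. Divided by the genome mean background, the RIBEYE start had summit enrichments of 46.5, 28.1 and 61.2 in control against 30.3, 31.6 and 26.9 in 4xIOP, and the groups, apart in fragments, overlapped on this scale. The RIBEYE start was therefore the higher in 6 of 6 lists, with a ratio of 2.62, 2.38 and 1.44 in control against 1.79, 1.91 and 2.23 in 4xIOP, and the ranges of the groups overlapped. An annotated transcript of Fgfr2 begins 17 bp from the upstream Ctbp2 start and its gene body spans the RIBEYE start as well, so fragments at the upstream start cannot be assigned to 1 gene. In all, 11 of the 40 genes have start sites separated by over 5 kb, and Ctbp2 was the only member with more than 1 of them marked in every list. Of the other such genes, 5 had 1 start marked in all 6 lists (Rims2, Erc2, Unc13b, Sv2b and Dnm3).

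**Figure D3:**
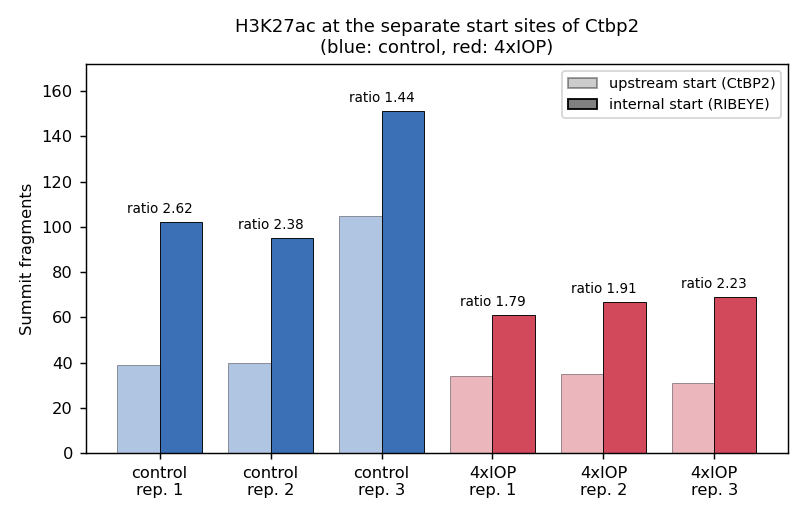
Fragments at the summit of the H3K27ac peak at the upstream start of Ctbp2 (light bars) and at the internal start of the RIBEYE transcript (dark bars) in each peak list, not scaled for depth, with the ratio of the starts above each pair. The internal start is the higher in every list, with ratios from 1.44 to 2.62.

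Bassoon (Bsn) and Piccolo (Pclo), the giant proteins that anchor the ribbon and organize the active zone, had promoters with high fold. The fold of Bsn was at percentile 96.5, 90.3 and 93.5 of its list in control and 94.8, 94.7 and 96.3 in 4xIOP. That of Pclo was at percentile 91.7, 93.4 and 97.4 in control and 92.0, 81.1 and 91.0 in 4xIOP. Their summit enrichments were 22.4 and 21.0 on average over the 6 lists, close to the median of the members, and their local backgrounds were 2.58 and 2.503 times the genome mean. These backgrounds were below the median of the members (5.07) and slightly above that of all genes marked in every list (2.40).

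The RIM proteins tether vesicles to calcium channels, and the paralogs differed. Rims2, the predominant RIM of ribbon synapses, had a summit enrichment of 26.0, 16.3 and 43.7 in control against 25.4, 22.2 and 16.0 in 4xIOP. Rims1 was marked in 5 lists. Its control lists gave 7.30, 5.62 and 10.9, the first 4xIOP lists 6.46 and 5.66, and 4xIOP replicate 3 held no peak. Rims2 was the higher in each of the lists in which both were marked. The same held for the ELKS genes, scaffolds that bind RIM and Bassoon.
Erc2 reached 17.3, 10.7 and 40.5 in control and 19.9, 16.5 and 11.3 in 4xIOP. Erc1, the form expressed in most tissues, reached 7.76, 5.62 and 10.9 in control, 6.96 in 4xIOP replicate 1 and 4.68 in 4xIOP replicate 3, with no peak in 4xIOP replicate 2. Of the priming factors, Unc13b was marked in all 6 lists (mean 17.7). Unc13a was marked only in control replicate 3 (24.3) and 4xIOP replicate 3 (11.3), which are the lists whose own name is that of their label.

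In the calcium channel complex, 3 of 4 genes were marked in all 6 lists. Cabp4, the calcium-binding protein that tunes the channel of photoreceptor terminals, had the highest mean summit enrichment of the 40 genes (40.8). Its enrichments were 40.6, 23.4 and 59.9 in control and 48.2, 46.2 and 26.5 in 4xIOP. A start of Gpr152 lies 178 bp from the Cabp4 start, within the same peak window. Cacna2d4, the auxiliary subunit of the same channel, had 35.6, 21.3 and 52.6 in control and 39.8, 36.3 and 19.9 in 4xIOP. The pore subunit Cacna1f itself, whose start lies 1582 bp from one of Ccdc22, was lower, at 9.58, 8.28 and 21.9 in control and 13.9, 12.2 and 7.404 in 4xIOP, and had the lowest mean (12.2) of all members marked in every list. In each of these genes the ranges of the groups overlapped. Cacna1d, which encodes the related L-type channel of other neurons and hair cells, was marked in 3 lists, at 5.03 and 8.91 in control replicates 2 and 3 and 5.97 in 4xIOP replicate 1. Its peaks lay at the downstream start (30352991 to 30353009 on chromosome 14), and the start at 30491156 was marked in no list.

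The fusion genes include pairs in which a ribbon form and a conventional form can be set beside each other. Syntaxin 3 (Stx3) replaces syntaxin 1A (Stx1a) as the membrane SNARE of photoreceptor ribbons. Stx3 was marked in all 6 lists, with a summit enrichment of 28.7, 18.6 and 50.6 in control against 20.4, 18.4 and 24.2 in 4xIOP. Stx1a was marked in control replicate 2 (5.62) and control replicate 3 (7.29) and in no 4xIOP list. Complexins hold the assembled SNARE complex before fusion, and complexins 3 and 4 are the forms of ribbon terminals. Cplx4 was marked in every list, at 35.6, 19.8 and 49.8 in control and 37.8, 36.8 and 19.1 in 4xIOP. Cplx3 was marked in 3 lists only, at 21.9 in control replicate 3 and 16.9 and 16.5 in 4xIOP replicates 1 and 2. Where a Cplx3 peak was called, its summit enrichment was at percentiles 42.2, 57.7 and 65.3 of the marked genes of the list, and its fold (2.95, 3.01 and 3.46) was low, at a local background of 5.63 times the genome mean. Cplx1, the main complexin of conventional terminals, was marked in control replicate 2 (5.62) and control replicate 3 (7.29), and Cplx2 in control replicate 3 (8.51) and 4xIOP replicate 1 (6.46).

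The 250 bases upstream of the RefSeq starts of these paralogs (GRCm38.p6) are given so that the promoters of the ribbon forms (Stx3, Cplx3) can be read beside those of the conventional forms (Stx1a, Cplx1). Capitals mark matches to any of 5 motifs on either strand: TAATCC (CRX-type core), CATCTG (an E-box of bHLH factors), TGACGT (CRE-type), TATAAA (the element bound by TBP) and GGGCGG (the GC box).
Stx3, chr19:11819404-11819653, minus strand: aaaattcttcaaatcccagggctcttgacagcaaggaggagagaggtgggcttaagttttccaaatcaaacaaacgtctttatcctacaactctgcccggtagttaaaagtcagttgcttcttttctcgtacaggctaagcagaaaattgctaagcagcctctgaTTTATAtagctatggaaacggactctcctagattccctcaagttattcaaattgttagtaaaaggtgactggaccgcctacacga
Stx1a, chr5:135023232-135023481, plus strand: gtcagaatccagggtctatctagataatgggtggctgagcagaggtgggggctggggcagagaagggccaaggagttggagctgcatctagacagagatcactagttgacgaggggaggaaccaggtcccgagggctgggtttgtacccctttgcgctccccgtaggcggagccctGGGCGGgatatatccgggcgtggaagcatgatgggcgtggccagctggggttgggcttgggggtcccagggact
Cplx3, chr9:57606282-57606531, minus strand: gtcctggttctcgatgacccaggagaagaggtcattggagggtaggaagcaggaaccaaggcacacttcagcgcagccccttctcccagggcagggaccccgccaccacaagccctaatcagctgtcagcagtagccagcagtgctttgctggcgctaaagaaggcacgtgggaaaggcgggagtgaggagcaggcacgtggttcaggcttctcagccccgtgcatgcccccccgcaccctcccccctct
Cplx1, chr5:108550028-108550277, minus strand: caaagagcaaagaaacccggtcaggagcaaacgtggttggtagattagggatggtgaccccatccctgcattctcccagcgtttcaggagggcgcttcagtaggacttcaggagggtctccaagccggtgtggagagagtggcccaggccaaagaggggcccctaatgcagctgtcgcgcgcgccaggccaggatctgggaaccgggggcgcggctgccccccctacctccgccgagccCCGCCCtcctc
Both conventional promoters held the GC box letters, 74 bp (Stx1a) and 11 bp (Cplx1) before the start, and the windows of Stx3 and Cplx3 did not. The letters did not set genes of ribbon terminals apart in general, since Slc17a7 (3 matches) and Cacna1f (1 match), which also act there, held them. Stx3 held TTTATA 85 bp before its RefSeq start, and the Cplx3 window held no match to the 5 motifs. The RefSeq start of Stx3 (11819403) lies upstream of the starts at which its peaks were scored (11818721 to 11818942). Its window therefore does not directly adjoin those starts. The windows hold 6 (Stx3), 9 (Stx1a), 9 (Cplx3) and 15 (Cplx1) CpG dinucleotides.

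RefSeq promoters were found for 34 of the 40 genes (46 promoters). Cabp4, Cacna2d4, Cplx4, Rims2, Snap25 and Vamp2 were not in the table used. All promoters of that table numbered 32851, of 27025 genes, a larger set than the 21938 protein-coding genes used elsewhere. The GC box letters were present in 23 of the 46 member promoters and 32.7% of all 32851 promoters, and the CRE-type letters in 10.9% and 6.47%. The CRX-type core was present in 8.70% and 6.25%, namely in promoters of Ctbp2, Sv2b and Syp, the E-box in 6.52% and 14.4%, and the TATA letters in 10.9% and 12.4%. The median ratio of observed to expected CpG was 0.583 in the member promoters and 0.373 in all promoters. Among members it was 0.583 for the genes marked in all 6 lists and 0.621 for the other genes. Every RefSeq start of a gene was counted there, including starts that were not themselves marked.

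The general fusion genes were marked in every list apart from Syt2. Vamp2, the vesicle SNARE synaptobrevin 2, was near Cabp4 with 42.9, 31.1 and 61.6 in control and 35.8, 42.4 and 24.2 in 4xIOP. Vamp1 had less than that in fragments (mean 18.0) but one of the highest folds, at percentile 96.9, 94.7 and 96.6 in control and 94.2, 97.0 and 83.9 in 4xIOP, with a local background of 1.96 times the genome mean. Snap25, the membrane SNARE of most neurons, had a mean enrichment of 23.5, Nsf, the ATPase that takes spent SNARE complexes apart, 20.6, and Napa, its adaptor, 26.9. Syt1, the calcium sensor of fast release, had 28.7, 19.2 and 37.7 in control and 25.4, 24.97 and 18.7 in 4xIOP. Its fold was at percentile 19.1, 32.9 and 17.5 in control and 8.10, 12.1 and 14.6 in 4xIOP, the lowest mean of all members (17.4). Syt1 was thus among the well marked genes by fragments and the lowest by fold, at a local background of 8.38 times the genome mean. Syt2 was marked in control replicates 2 and 3 (4.14 and 6.48) and 4xIOP replicate 2 (6.13).

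Of the vesicle proteins, 5 of 9 were marked in all 6 lists. Slc17a7, the transporter VGLUT1 that loads glutamate into vesicles of photoreceptors and bipolar cells, had 23.3, 18.9 and 53.5 in control and 27.4, 32.04 and 11.7 in 4xIOP. The lowest and the highest of these lists are the pair whose own names match the labels. The SV2 genes encode a glycoprotein of the vesicle membrane and were marked to different degrees. Sv2b, the form of ribbon terminals, had 29.6, 18.3 and 42.1 in control and 29.8, 26.4 and 15.2 in 4xIOP, with its fold at percentiles from 10.8 to 35.4. Sv2a averaged 13.2, and Sv2c had no peak at either of its starts in any list. Syp, which encodes synaptophysin, averaged 13.8, and Rab3a, the GTPase of docked vesicles, 20.9. The synapsins cluster vesicles in conventional terminals and are absent from ribbon terminals. Syn1 was marked in control replicate 3 (8.10) and 4xIOP replicate 3 (4.68), and Syn2 in control replicate 3 alone (8.10), while Syn3, a related gene outside the 40, was marked in 4 lists (mean 8.52). The Rab3 effector Rph3a was likewise marked in control replicate 3 alone (8.10), as were 5.23% of all protein-coding genes.

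All 5 genes of vesicle retrieval were marked in all 6 lists. Their mean summit enrichments were 28.6 for dynamin 1 (Dnm1) and 17.0 for dynamin 3 (Dnm3), the GTPases that cut vesicles from the membrane, 26.1 for Synj1 (synaptojanin 1), 27.8 for Sh3gl2 (endophilin A1) and 23.1 for Amph (amphiphysin). Dnm3 had 17.8, 10.7 and 34.02 in control and 15.9, 12.2 and 11.7 in 4xIOP. A start of Ciz1 lies 907 bp from that of Dnm1. Synj1 had the highest percentile of fold in this group (mean 89.4) and Amph the lowest (38.3).

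A set of 7 genes known from ribbon terminals (Cacna1f, Cacna2d4, Cabp4, Cplx3, Cplx4, Stx3, Slc17a7) had 6 marked in all 6 lists, with a median summit enrichment of 30.5 over these 6, while Cplx3 was marked in 3 lists. Of their relatives Cacna1d, Cplx1, Cplx2 and Stx1a, 0 of 4 were marked in every list. Cacna1d is not confined to conventional synapses, since hair cells also release from ribbons. The pairs of Rims2 with Rims1 and of Sv2b with Sv2a were not in these sets, and there the relatives were marked more often, Rims1 in 5 lists and Sv2a in all 6 with a mean enrichment of 13.2, above that of Cacna1f (12.2). The sets were chosen by name with earlier results of these data known, so the contrast is no independent evidence, and no test was applied to it.

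The 12 genes marked in some lists were each marked in control replicate 3, the list with the most peaks. In 10 of them the mean enrichment over the lists with a peak was below 10, the exceptions being Unc13a (17.8) and Cplx3 (18.4), while genes marked in all 6 lists had means from 12.2 to 40.8. The lists hold no signal where no peak was called, so a promoter without a peak was not detectably acetylated at this depth and cannot be called unacetylated. By its median position over the 6 lists, the summit lay downstream of the nearest start in 26 of the 27 genes marked in every list, at a median of 229 bp and within 500 bp in 24 of them. The exception was Syt1 (-511 bp), and the farthest downstream was Snap25 (754.5 bp). Single lists departed from the median, with upstream summits in Cabp4 (-811 bp), Cacna2d4 (-325 bp) and Stx3 (-29 bp) and a downstream one in Syt1 (227 bp).

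Other synaptic genes were read from a list of 95 companions with the same roles. Of these, 57 were marked in all 6 lists, 29 in some and 9 in none. Retrieval genes were again the best marked, with 20 of 23 in all lists. The scaffold had 11 of 16, the vesicle proteins 14 of 24, the fusion genes 10 of 21 and the calcium channel genes 2 of 11. The median summit enrichment percentile of the 57 genes was 61.5, between all genes marked in every list (56.5) and the 27 members so marked (86.9). The highest mean percentiles of fold were those of Atp6v0c (99.4), a subunit of the vesicle proton pump, Lin7c (94.2) and Vamp4 (91.6). The lowest were those of Bin1 (6.62), Mpp4 (10.5) and Unc119 (18.3), of which Mpp4 and Unc119 are photoreceptor synapse genes with summit enrichments of 26.5 and 52.4.

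Recurring pressure elevation was the comparison of the study, and it was asked whether the acetylation of these promoters differed on day 2 after the last elevation. The control lists had 84.2% ± 12.6 of the 40 promoters marked and the 4xIOP lists 76.7% ± 2.89 (SD, n = 3), a difference of -7.5 percentage points that was within the spread between control lists. Over all protein-coding genes the shares were 50.6% ± 5.64 and 45.9% ± 1.42. Without control replicate 3 the difference was -0.833 points, without control replicate 1 it was -13.3 points, and between the lists whose own name matches the label it was -22.5 points. Within the lists of long fragments (1 control, 2 4xIOP) it was 5.0 points and within those of short fragments (2 control, 1 4xIOP) -15.0 points, so its direction was not the same in both classes. No member was marked in all lists of one group and in none of the other (0 of 40 in each direction), against 0.36% of all genes for control alone and 0% for 4xIOP alone. Without control replicate 1, Stx1a and Cplx1 would be counted as marked in control alone.

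For promoters marked in all 6 lists, fold was ranked within each list and the ranks were turned into normal scores, which have a mean near 0 and an SD near 1 in each list. A difference of scores was tested with limma over all 8669 genes with Benjamini-Hochberg adjustment. No gene passed an adjusted p of 0.05 in either direction (0% of all genes, 0 of 27 members), and 3.11% of all genes and 0 of 27 members had an unadjusted p under 0.05. Of the 27 members, 13 had higher and 14 had lower values in 4xIOP, with a median difference of -0.04 against 0.00 over all genes.

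The largest differences in either direction were those of Cabp4 and Cplx4. Cabp4 scored -1.57, -1.24 and -1.58 in control and -0.71, -1.11 and -0.76 in 4xIOP. Every 4xIOP list was above every control list, and the difference was 0.60 ± 0.36 (SE, n = 3 lists per group, limma adjusted p = 0.9996). Cplx4 scored -0.96, -1.17 and -1.60 in control and -0.64, -0.83 and -0.60 in 4xIOP, again without overlap, with a difference of 0.55 ± 0.36 (limma adjusted p = 0.9996). These are the 2 of 27 members (7.41%) whose 4xIOP lists all lay above the control lists, and 4.25% of all genes did so. Both orders hold for the groups as labelled, and the lack of overlap depends on the 4 lists that carry the other group's name. Control replicate 3 and 4xIOP replicate 3, whose own names match the labels, had the same order (-1.58 and -0.76 for Cabp4, -1.60 and -0.60 for Cplx4). No member had all 4xIOP lists below the control lists, against 3.93% of all genes. The difference of Cacna1f was 0.47 ± 0.37 (limma adjusted p = 0.9996), with overlapping groups. On the other side were Rab3a (-0.49 ± 0.36), Dnm3 (-0.47 ± 0.40) and Erc2 (-0.37 ± 0.37), each with a limma adjusted p of 0.9996. Ctbp2, by the higher fold of its start sites, differed by -0.25 ± 0.36 (limma adjusted p = 0.9996). Tested as separate regions, the RIBEYE start (chr7:133013487-133015420) differed by -0.60 ± 0.37, the largest difference among the promoter regions of the members, and the upstream start (chr7:133121617-133124357) by -0.23 ± 0.30 (SE, limma over 10529 regions, adjusted p = 0.9999 for each).

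With summit enrichment in place of fold, no gene was called either (0% of 8669), and 3.39% had an unadjusted p under 0.05. Among the members this was Rab3a alone, with a difference of -0.61 ± 0.27 (SE, limma adjusted p = 1.0). Its summit enrichments were 22.4, 15.4 and 40.1 in control and 19.4, 15.6 and 12.5 in 4xIOP, which overlap before ranking. In these ranks Cabp4 lay above without overlap (4.45% of all genes), and Rab3a and Vamp2 lay below without overlap (4.35% of all genes).

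**Figure D4:**
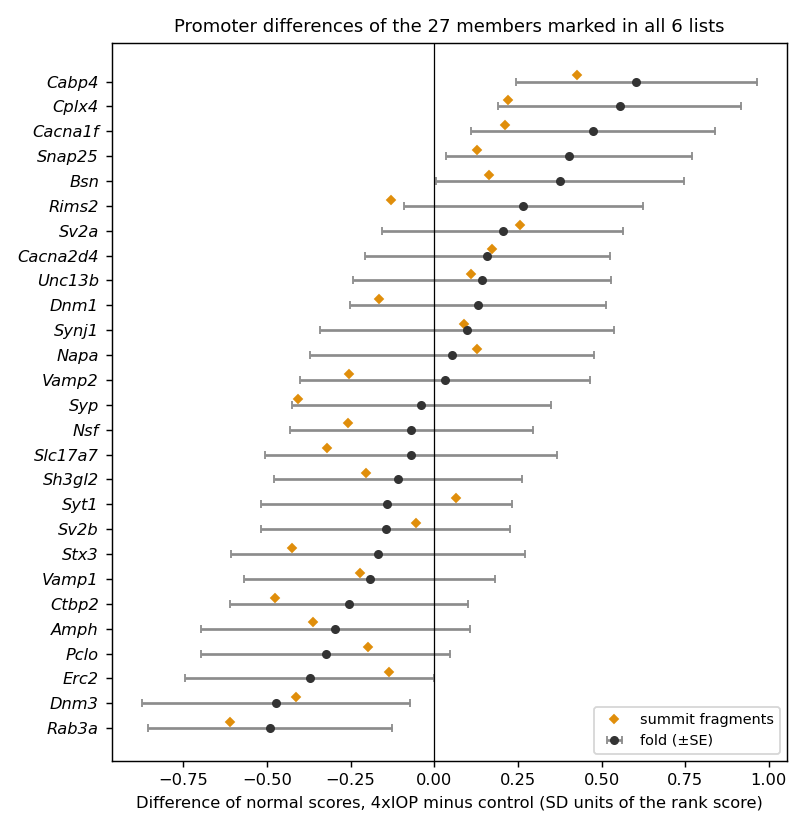
Difference of the normal scores of the promoter peak between 4xIOP and control (x axis) for the 27 genes marked in all 6 lists, from fold (black, with SE from limma, n = 3 lists per group) and from summit fragments (orange). The differences from fold run from -0.49 (Rab3a) to 0.60 (Cabp4), no gene passed the adjusted threshold, and the measures differ in sign for some genes such as Rims2 and Dnm1.

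Acetylated regions inside the gene bodies, over 2.5 kb from any coding TSS, were counted last, since enhancers of a gene often lie in its introns. The 40 genes held 139 such regions in 26 genes, and 23.1% of all protein-coding genes held at least 1. Gene length was not taken into account in this comparison. Members reach 856 kb (Erc2, 8 regions), and Rims1 (520 kb) held 0. Of the 139 regions, 7 (5.04%) were called in all 6 lists, against 8.93% of such regions over all genes, and 71 (51.1%) in 1 list, against 51.8%. Of these 71 regions, 53 were called in control replicate 3 alone. An exon of the same gene was overlapped by 14 regions, and 12 lay near the start of a noncoding transcript.

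Sh3gl2 held the most regions (18), followed by Sv2b (17), Rims2 (15), Nsf (11) and Ctbp2, Erc2 and Syt1 (8 each). Sh3gl2 had 4, 4 and 14 regions in control and 4, 9 and 2 in 4xIOP. Sv2b had 7, 5 and 14 in control and 2, 3 and 2 in 4xIOP, and Sv2b and Snap25 are the 2 of 26 genes whose 4xIOP counts all lay below control, beside 2.57% of the genes with such regions (0 of 26, beside 0.0197%, lay above). With the same number of peaks from each list Sv2b had 1, 2 and 1 in control and 1, 2 and 2 in 4xIOP, and 0 members lay below. Rims2 had 6, 1 and 15 in control and 2, 5 and 3 in 4xIOP. The counts of Nsf were 8, 4 and 10 in control and 6, 6 and 3 in 4xIOP, and those of Ctbp2 3, 2 and 8 in control and 3, 2 and 1 in 4xIOP. Erc2 had 2, 1 and 4 in control and 1, 0 and 0 in 4xIOP, and Syt1 had 3, 3 and 7 in control and 4, 4 and 2 in 4xIOP. Control replicate 3 was the highest list in each of these genes. One Sv2b region, at chr7:75297261-75297835, 10.8 kb from the nearest start, was called in control replicate 3 (summit enrichment 36.4) and in all 4xIOP lists (29.3, 27.3 and 24.2), and not in control replicates 1 and 2. The adjacent region chr7:75296338-75296895 was called in control replicate 1 (31.0) and control replicate 3 (36.0) and in no 4xIOP list, so the stretch as a whole was without a peak in control replicate 2 alone.

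The 7 regions called in every list lay in Nsf (2), Ctbp2, Sh3gl2, Pclo, Unc13b and Napa. The Ctbp2 region, chr7:133083904-133084706, lies 38.9 kb from the nearest start, between the start sites of the gene and within a stretch that the annotation also assigns to Fgfr2. Its summits held 23, 24 and 25 fragments in control and 25, 26 and 22 in 4xIOP, and it had the largest score difference of the 7 (0.60 ± 0.31, SE, limma over 10529 shared regions, adjusted p = 0.9999). The Napa region (chr7:16103616-16104707) was the highest in most lists, with summit enrichments of 21.4, 18.0 and 39.3 in control against 28.4, 26.9 and 16.8 in 4xIOP. None of the 7 regions and none of the 31 promoter regions of the members was called (0 of 10529 regions in either direction, and 3.17% at an unadjusted p under 0.05).

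The number of gene-body regions per list was 46, 34 and 117 in control and 36, 45 and 23 in 4xIOP. The difference of the means was -31.0 regions, with a pooled SD of 32.7. Without control replicate 3 it was -5.33 regions, and with the same number of peaks (16195) taken from the top of each list it was 3.33 regions. Within the lists of long fragments it was -5.5 and within those of short fragments -52.5 regions. Per 10000 peaks the counts were 21.0, 17.1 and 32.1 regions in control and 17.7, 21.6 and 14.2 in 4xIOP, so the lists differed on this scale too.

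**Figure D5:**
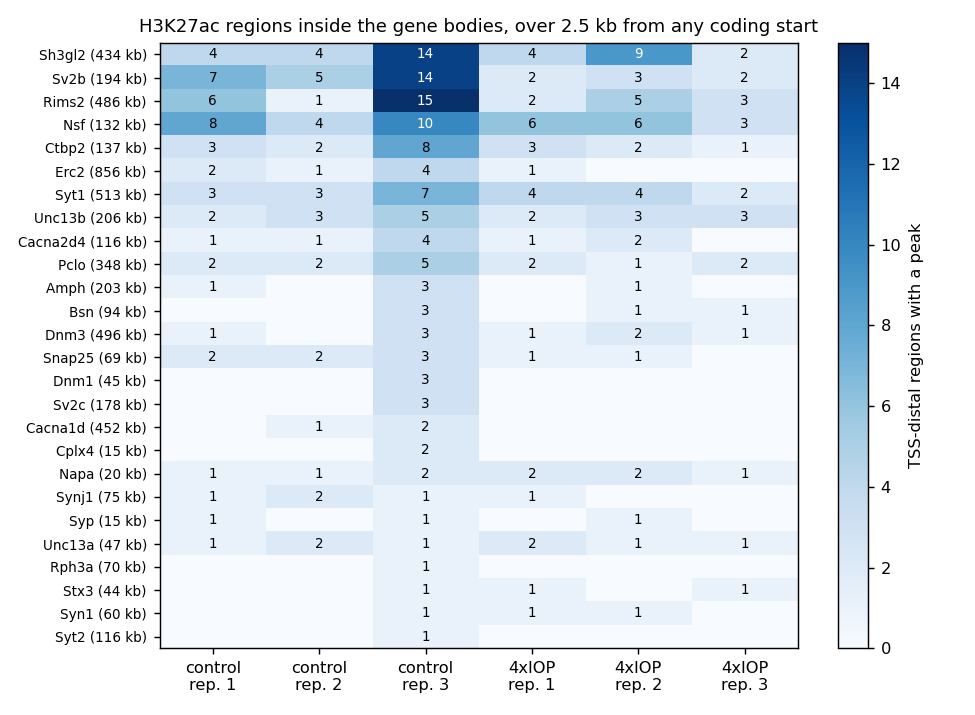
Number of H3K27ac regions inside the gene body and over 2.5 kb from any coding start, for each of the 26 genes that held any (rows, with gene length) in each peak list (columns), darker blue for more regions. Control replicate 3 holds 117 of these regions in all and the other lists 23 to 46, and Sh3gl2, Sv2b, Rims2 and Nsf hold the most.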

How the data were processed

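H3K27ac ChIP-seq of single mouse retinas (3 control, 3 4xIOP) was used as deposited, as 1 narrowPeak list per sample, called for that sample alone. The fold enrichment at each summit is a ratio computed by the authors' peak caller, as are the −log10 p-value and the q-value on the same −log10 scale, and the deposited integer score was not used. The submitters' processing notes name MACS2, HOMER, STAR 2.7.8a, edgeR and bedtools 2.29.2 and the build mm10, without roles. The lowest −log10 q of a list was 1.31 to 1.41. No read counts are stated, so fragments and background were solved from fold and p under a Poisson model, in which 100% of p-values were returned within 0.001. The lowest background of a list (2.01 to 3.38 fragments) was taken as its genome mean and gives the depth.

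Gene models were GENCODE vM21 basic on GRCm38, and overlapping peaks of all lists were merged into 39942 regions, of which 10529 were called in all 6. Normal scores of ranks within a list were tested with limma 3.58.1 (R 4.3.3) and Benjamini-Hochberg adjustment at 0.05 over all genes or regions. The fits were checked on simulated data. The labels gave the groups and the replicate numbers. Deviations of lists with the same number correlated at -0.02, -0.04 and -0.14, and the numbers were not treated as pairs. Values over the 40 genes are given without a test. The members, the companions, the motifs and the paralog sets were chosen with earlier results of these data known. Values per list are given for genes not marked in every list and for the 3 highest and 3 lowest by mean percentile of fold. They are also given for the 3 smallest limma p in each direction and for the genes with the most gene-body regions. The genes of ribbon terminals and their relatives have values per list as well. Alternatives were another measure, a −log10 q of at least 5, equal numbers of peaks, promoters of 1 kb, a term for the fragment-length class, a replicate block and each list left out.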

Additional observations from a re-analysis of the deposited data

How the results depend on the processing

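No promoter or region was called by limma under any alternative tried (12 for genes, 11 for regions), and an unadjusted p under 0.05 was found for 179 to 479 genes and 252 to 702 regions, and leaving out each list gave 0 calls in every case. The score differences of Cabp4, Cplx4, Cacna1f, Rab3a, Dnm3, Erc2 and Ctbp2 kept their sign under every alternative in which the gene could be fitted (Dnm3 in 10 of 12). The median score difference of the members (-0.04) ranged from -0.13 to 0.08 when a list was left out. With summit enrichment in place of fold it was -0.14, with 11 members higher and 16 lower in 4xIOP. The replicate block gave 0 calls, a share difference of -7.5 points and a gene-body difference of -31.0 regions. The labels do not say whether lists with the same number share an animal, so no conclusion is drawn from the block.

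The difference in marked promoters was -22.5 points with the lists whose own name matches the label and 5.0 points within the lists of long fragments, and ran from -13.3 to -0.833 points when a list was left out. Promoters marked in control alone numbered 1 (Rims1) at a −log10 q of at least 5 and 0 to 2 when a list was left out, and those in 4xIOP alone 0 to 0. The gene-body difference was 3.33 regions with equal numbers of peaks and -94.0 with the lists whose own name is that of the label, and ran from -46.8 to -5.33 when a list was left out. The cause of these shifts was not tested. The 2 members with lower gene-body counts in every 4xIOP list became 0 with equal numbers of peaks. This value and those within fragment-length classes were chosen after seeing the data. At 2.01 to 3.38 background fragments, a weakly acetylated promoter may have no peak. In simulated data the fits recovered larger changes in most cases but none of the smaller ones tried, which still exceeded the largest difference of any member, so the absence of calls does not show that the promoters did not differ.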
